A study of Mus musculus with 12 samples.

Results

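Nucleic acid sensors and Toll-like receptors are the proteins through which a cell detects viral or displaced RNA and DNA, and products of bacteria. The genes described here were chosen by name, as all probes whose gene name in the array files equals one of 10 symbols. By that rule 9 of the 10 symbols were found, and the tenth, *Tmem173*, is listed in the files as *Sting1*, a name matched through the synonyms of RefSeq for GRCm38.p6. They are 10 of the 29608 genes measured, with 15 of 39429 probes and 24 of 43020 spots. The Toll-like receptors TLR3, TLR7 and TLR9 sit in endosomes and bind double-stranded RNA, single-stranded RNA and DNA rich in unmethylated CpG, respectively, while TLR4 sits at the cell surface and answers to lipopolysaccharide. UNC93B1 carries the endosomal receptors to their compartment, RIG-I (*Ddx58*) and MDA5 (*Ifih1*) sense RNA in the cytosol, and the adaptors MYD88, MAVS and STING pass the signals on to NF-κB and interferon genes. In the brain these receptors are found mostly on microglia, and in lupus TLR7 and TLR9 are known for their response to self RNA and DNA in immune complexes.

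Total RNA from the hippocampus of 12 adult female mice, about 12 weeks old, was hybridized to 6 Agilent arrays, 4 mice of each of 3 strains. The strains share the MRL background. In MRL/lpr mice a mutation disables *Fas*, and they serve as a model of lupus. Fn14ko mice are MRL/lpr mice that in addition lack *Tnfrsf12a*, which encodes Fn14, the receptor of the cytokine TWEAK. MRL/+ mice are the controls without that disease. Comparing the strains asks how the levels differ with the disease and with the loss of Fn14 in it. Each array took 2 mice of a strain, with Cy3 for replicates 1 and 3 and Cy5 for replicates 2 and 4. Both arrays of a strain lay on 1 slide, so that slide and strain cannot be told apart. The MRL/+ mice also came from another breeder. The free-text descriptions of the samples name the cortex, whereas their source and tissue fields name the hippocampus.

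A level below is the background-subtracted intensity of a gene, averaged over its spots and probes, in multiples of the channel median, the median over the 10877 spots at least 2 times brighter than their background and free of outlier marks in all 12 samples. The channel median was 4545, 1715, 170 and 74.7 intensity units in MRL/lpr replicates 1 to 4, 4383, 3385, 3584 and 2127 in Fn14ko, and 3676, 684, 3627 and 942 in MRL/+. The array of MRL/lpr replicates 3 and 4 was thus weak, and the differences of MRL/lpr in the 10 genes are given with and without it. The share of spots that the software called well above background was 66.0%, 60.8%, 25.2% and 19.6% in MRL/lpr, 65.4%, 56.1%, 68.1% and 51.5% in Fn14ko, and 67.5%, 29.6%, 66.2% and 31.8% in MRL/+. Besides the weak array, both Cy5 samples of MRL/+ were low.

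Spots with negative-control probes, which match no mouse transcript, show what a spot without target gives. Their median intensity before background subtraction was 33.2, 56.9, 38.7 and 56.8 in MRL/lpr, 37.9, 87.5, 35.7 and 90.6 in Fn14ko, and 44.1, 208, 45.2 and 211 in MRL/+. In multiples of the channel median, above the background, this came to 0.00203, 0.0139, 0.0687 and 0.332 in MRL/lpr, to 0.00101, 0.0163, 0.00104 and 0.0276 in Fn14ko, and to 0.00328, 0.254, 0.00335 and 0.187 in MRL/+. These negative-control levels were thus highest in MRL/lpr replicate 4 and in MRL/+ replicates 2 and 4, and they set how low a level can be read in each sample. The number of the 10 sensor and receptor genes called well above background, on spots without an outlier mark, was 10, 9, 3 and 2 in MRL/lpr, 10, 9, 10 and 9 in Fn14ko, and 10, 3, 10 and 5 in MRL/+. Where a gene was not well above background on every array of a strain, its log2 difference is a fitted value and no fold is given.

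*Tnfrsf12a* and *Fas* serve as checks of the labels. The level of *Tnfrsf12a* (1 probe, chromosome 17, 23812746 to 23812805, mm9) was 0.177, 0.160, 0.189 and 0.151 in Fn14ko, 0.439, 0.307, 0.241 and 0.247 in MRL/lpr, and 0.283, 0.629, 0.503 and 0.502 in MRL/+. All 4 Fn14ko samples lay below the other 8, yet each of these 4 was called well above background, and the files do not say whether the probe lies in the deleted stretch. The log2 difference of Fn14ko from MRL/+ was −1.45 (standard error 0.32, adjusted p = 0.0930 in limma with a range over alternatives of 1.13e-05 to 1, exact permutation p = 0.0286), with values of −1.86 to −0.53 over the alternatives. Its adjusted p was 0.0378 without MRL/lpr replicate 3 and 1.13e-05 without the weak array. MRL/lpr lay 0.83 above Fn14ko (adjusted p = 0.125, limma), a difference whose sign flipped with quantile normalization (−0.29), with subtraction of the negative-control spots (−0.28) and with the median over all probe spots (−0.63), and which was 1.13 without the weak array (adjusted p = 0.00691, limma), 1.22 with normexp background (0.0245) and 0.82 without MRL/lpr replicate 2 (0.0497). The fit without MRL/lpr replicate 2 called most of all genes in this comparison. In MRL/lpr replicates 3 and 4 *Tnfrsf12a* was not well above background, and in replicate 4 it lay below the negative-control level. For *Fas* (1 probe, chromosome 19), which was well above background in 1 MRL/lpr, 4 Fn14ko and 2 MRL/+ samples, the level was 0.0384, 0.0281, 0.0538 and 0.253 in MRL/lpr, 0.0467, 0.0415, 0.0571 and 0.0563 in Fn14ko, and 0.0983, 0.226, 0.0487 and 0.213 in MRL/+. In the fit without the weak array, *Fas* was lower in MRL/lpr than in MRL/+ by a log2 difference of −1.91 (adjusted p = 0.0104 in limma, over alternatives 0.0104 to 0.980), while with all samples the ranges overlapped and the difference was −0.99 (adjusted p = 0.527, limma), which was −1.86 with quantile normalization (0.0312) and flipped to 0.03 with normexp background and to 0.88 with the Agilent processed signal. Fn14ko, which carries the same mutation, differed from MRL/+ by −1.30 (adjusted p = 0.422, limma; 0.0340 without the weak array), and by 0.12 with the negative-control spots as background.

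Markers of the labelled tissue were present. Of a list of 10 genes of hippocampal neurons, all were well above background in both samples of the bright MRL/lpr array and in the Cy3 samples of Fn14ko, and 9 in each Cy3 sample of MRL/+. In the other samples it was 6 in each of the weak array, 8 in each Cy5 sample of Fn14ko, and 4 and 5 in MRL/+ replicates 2 and 4. Their summed level was 17.3, 19.5, 9.32 and 12.4 in MRL/lpr, 8.99, 13.0, 10.1 and 12.7 in Fn14ko, and 10.3, 15.8, 9.33 and 13.1 in MRL/+, with *Neurod2* the most abundant. For this and the other lists, most abundant means the highest mean level, and levels of different probes do not rank transcripts. In limma, 5 of the 10 were higher in MRL/lpr than in MRL/+ and 5 than in Fn14ko, beside 0.831% and 4.62% of all genes. A list of 5 choroid plexus genes, with *Ttr* the most abundant, summed to 36.2, 11.2, 7.51 and 26.7 in MRL/lpr, 4.98, 0.849, 0.724 and 0.454 in Fn14ko, and 1.09, 2.18, 0.889 and 1.54 in MRL/+. A list of 6 striatal genes, with *Ppp1r1b* the most abundant, summed to 2.19, 1.67, 2.58 and 4.18 in MRL/lpr, 6.08, 8.51, 15.1 and 5.33 in Fn14ko, and 5.79, 3.92, 3.91 and 2.78 in MRL/+. In limma 1 and 3 of the 5 choroid plexus genes were higher in MRL/lpr than in MRL/+ and Fn14ko, and 1 and 3 of the 6 striatal genes lower (1.76% and 1.38% of all genes lower). MRL/lpr samples thus held more choroid plexus signal than all other samples, and the 2 on the bright array held less striatal signal than all others. Whether the dissected tissue differed, and the part of this in the results below, was not tested.

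Across the 10 sensor and receptor genes, limma called 0 in each comparison at an adjusted p under 0.05. For MRL/lpr against MRL/+, where 2.59% of all genes were called, the count at an unadjusted p under 0.05 was also 0 (18.6% of all genes). For Fn14ko against MRL/+, with 0.142% of all genes called, it was 1 (*Tlr9*; 8.52%). For MRL/lpr against Fn14ko, with 6.01% called, it was 2 (*Tlr7* and *Ddx58*; 27.7%). With the array as a random block limma also called 0 of the 10 in each comparison, beside 0.375%, 0% and 0.189% of all genes, and 0, 1 and 1 at an unadjusted p under 0.05, beside 11.3%, 3.10% and 16.6%. The strains did not overlap for 0 of the 10 genes between MRL/lpr and MRL/+ (7.65% of all genes, 1.73% higher and 5.92% lower in MRL/lpr), for 2 genes, *Tlr7* and *Tlr9*, both lower in Fn14ko than in MRL/+ (10.6% of all genes, 8.36% lower and 2.27% higher), and for 1, *Ddx58*, higher in MRL/lpr than in Fn14ko (17.4%, of which 12.4% higher and 4.93% lower), where 2 of the 4 MRL/lpr values were not well above background. For *Ddx58* the negative-control levels of those 2 samples (0.0687 and 0.332) exceed every Fn14ko value, and for *Tlr7* those of MRL/+ replicates 2 and 4 do. In these samples a spot without target would not overlap with Fn14ko either. Counts of 1 or 2 of 10 are near these shares.

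The median log2 difference of the 10 genes was −0.08, −0.55 and 0.45 in MRL/lpr against MRL/+, Fn14ko against MRL/+ and MRL/lpr against Fn14ko, beside medians over all genes of 0.20, −0.97 and 1.33. Among the 4084 genes well above background in all 12 samples the medians were −0.20, −0.10 and −0.15. Without the weak array the medians of the 10 genes were −0.49, −0.55 and 0.12, beside −0.70, −0.96 and 0 over all genes. With each channel divided by its median over all probe spots instead, chosen after seeing the data, the medians over all genes were −0.26, −0.02 and −0.10. Differences of dim genes are to be read against these shifts, and the 3 comparisons share samples.

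**Figure D1:**
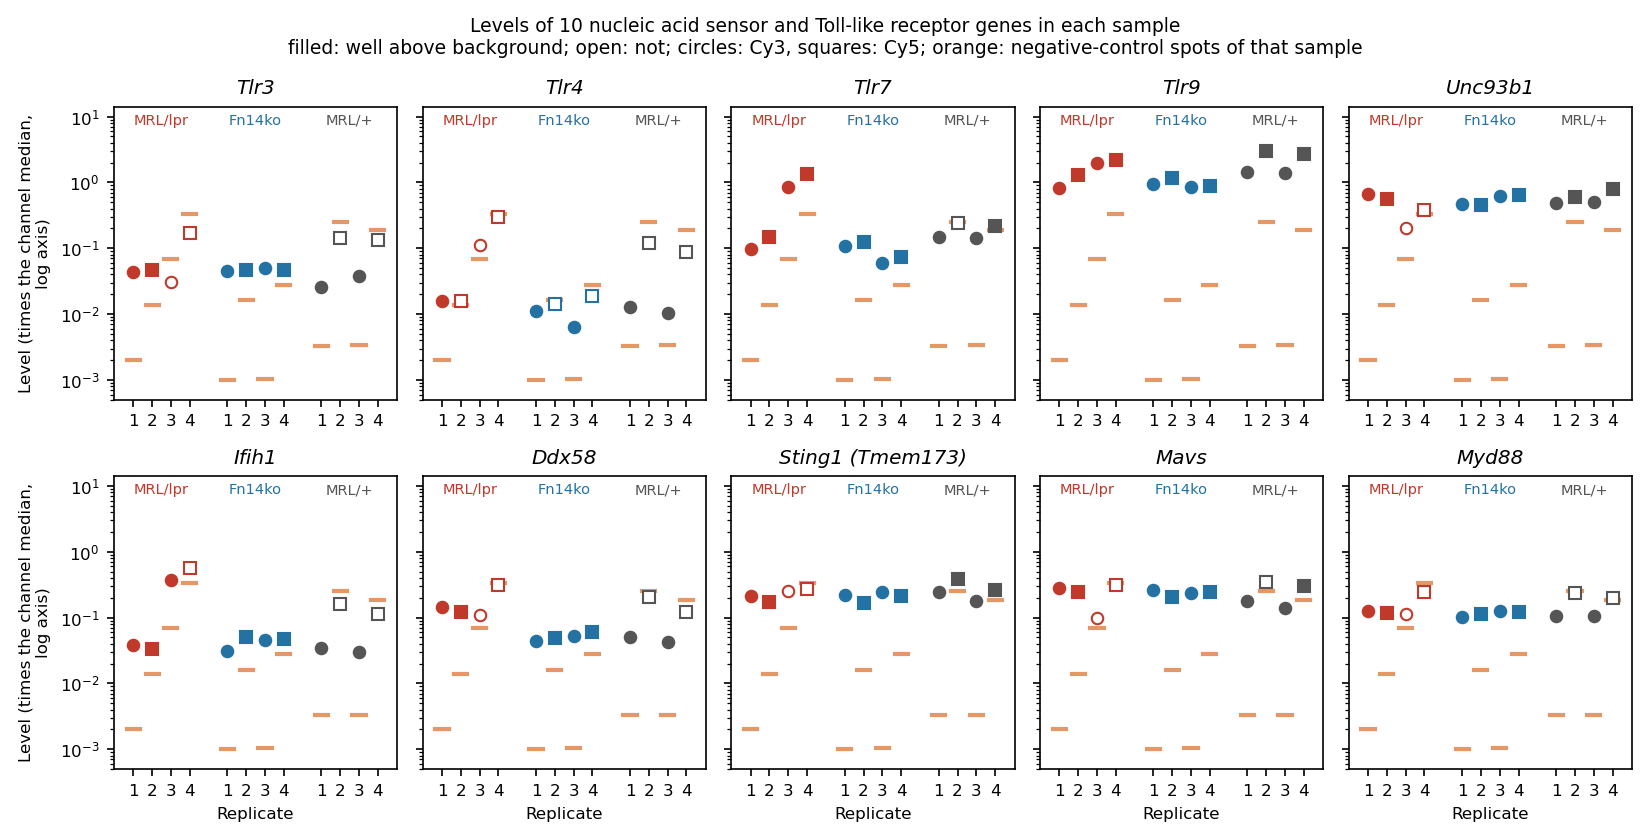
Levels of the 10 genes in each sample, in multiples of the channel median on a log axis, by strain and replicate. Filled symbols are well above background and open ones are not, circles are Cy3 and squares Cy5, and orange bars give the negative-control level of the sample; in MRL/lpr replicate 4 and MRL/+ replicates 2 and 4 most of the dimmer genes lie close to that bar.

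Of the receptors, *Tlr9*, the endosomal receptor for CpG DNA, was the only one of the 10 genes well above background in all 12 samples (1 probe, A_51_P432563, chromosome 9, 106128979 to 106129038, mm9). Its level was 0.813, 1.28, 2.00 and 2.23 in MRL/lpr, 0.936, 1.19, 0.857 and 0.898 in Fn14ko, and 1.47, 2.98, 1.39 and 2.67 in MRL/+. Every Fn14ko sample lay below every MRL/+ sample, in Cy3 as in Cy5, and the MRL/lpr samples split by array, with the weak array as high as MRL/+ and the bright one among or near the Fn14ko values. The means were 1.58 ± 0.651, 0.970 ± 0.149 and 2.13 ± 0.819 times the channel median (SD, n = 4 each) in that order of strains.

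In Fn14ko against MRL/+ the log2 difference of *Tlr9* was −1.06 (standard error 0.31, 95% confidence interval −1.72 to −0.41), 0.479 times the MRL/+ level. The adjusted p was 0.209 in limma, and the exact permutation p was 0.0286, the smallest that 4 against 4 can give, in a test that does not take the shared arrays into account. With the array as a random block the adjusted p was 0.651 in limma. Relative to the genes well above background in all samples, whose median moved by −0.10, *Tlr9* was lower in Fn14ko. Relative to the median of all genes, which moved by −0.97, it was not much lower, and with the median over all probe spots as the scale the difference shrank to −0.14. Over 29 alternatives, leave-one-out fits included, it ran from −1.45 to −0.14 without a change of sign, and its adjusted p from 1.93e-05 to 1. The weak array holds only MRL/lpr samples, so leaving it out cannot move a difference of Fn14ko from MRL/+ and changes only the estimate of the spread, here to a standard error of 0.18 and an adjusted p of 1.93e-05 in limma.

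Between MRL/lpr and MRL/+ *Tlr9* differed by −0.45 (standard error 0.31, adjusted p = 0.522 from limma, exact permutation p = 0.371). Without the weak array MRL/lpr was lower by −0.98 (adjusted p = 0.00133 in limma, over alternatives 0.00133 to 0.922), a difference that rests on 2 MRL/lpr mice of 1 array. MRL/lpr against Fn14ko gave 0.61 (adjusted p = 0.202, limma; 0.0416 without MRL/lpr replicate 2), 0.09 without the weak array, and −0.85 with the median over all probe spots. Without MRL/lpr replicate 2 most of all genes were called in this comparison. Of the 10 genes, limma without the weak array called 1 in MRL/lpr against MRL/+ (*Tlr9*; 10.2% of all genes were called), 2 in Fn14ko against MRL/+ (*Tlr9* and *Tlr7*; 12.5%) and 0 in MRL/lpr against Fn14ko (7.72%). At an unadjusted p under 0.05 these counts were 1, 2 and 1 (*Ddx58* in the last), beside 25.2%, 45.4% and 15.9% of all genes. With the array as a random block in that smaller set, chosen after seeing the data, limma called 70.7%, 78.3% and 22.1% of all genes and 6, 7 and 1 of the 10, and without the Cy5 samples of MRL/+ as well, but no block, 12.2%, 0.554% and 12.6% of all genes and 2, 0 and 1 of the 10 (3, 3 and 1 at an unadjusted p under 0.05, beside 25.6%, 15.5% and 25.5% of all genes). No call is read from the former, whose block correlation was −0.749. Counts of alternatives and ranges of adjusted p in this text leave it out, apart from the closing tally over all differences.

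*Tlr7*, the endosomal receptor for single-stranded RNA, is measured by 3 probes on chromosome X. Its level was 0.0972, 0.147, 0.848 and 1.34 in MRL/lpr, 0.109, 0.126, 0.0589 and 0.0733 in Fn14ko, and 0.148, 0.246, 0.142 and 0.220 in MRL/+. The highest values were those of the weak array, whereas the other 2 MRL/lpr samples lay among or near both other strains, and every Fn14ko sample lay below every MRL/+ sample. In MRL/+ replicate 2 *Tlr7* was not well above background. The negative-control levels of MRL/+ replicates 2 and 4 (0.254 and 0.187) alone exceed every Fn14ko value. For MRL/lpr against Fn14ko the log2 difference was 2.03 (standard error 0.68, adjusted p = 0.0921 from limma, exact permutation p = 0.0857), and 0.45 without the weak array (adjusted p = 0.851, limma). Its adjusted p was 0.0168 without MRL/lpr replicate 1 and 0.0106 without replicate 2. The fit without replicate 2 called most of all genes in this comparison, and no call is read from it. For MRL/lpr against MRL/+ it was 0.96 (adjusted p = 0.561, limma) and reversed to −0.62 without the weak array (adjusted p = 0.220, limma). In Fn14ko against MRL/+ *Tlr7* differed by −1.07 (standard error 0.68, adjusted p = 0.422 from limma, exact permutation p = 0.0286), with an adjusted p of 0.0137 without the weak array (over alternatives 0.0137 to 1). That difference was −0.15 with the median over all probe spots and flipped to 0.50 with the negative-control spots as background.

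The 3 probes of *Tlr7* differed in signal, and no test compared their differences. Probe A_55_P2050932 (163742863 to 163742922, mm9) was well above background in 11 of 12 samples, at a level of 0.227, 0.377, 2.31 and 3.36 in MRL/lpr, 0.245, 0.273, 0.115 and 0.134 in Fn14ko, and 0.384, 0.416, 0.377 and 0.396 in MRL/+. Its intensity before scaling was 1056, 680, 421 and 286 in MRL/lpr, 1104, 953, 440 and 316 in Fn14ko, and 1441, 318, 1401 and 406 in MRL/+. The 2 spots of the weak array were dimmer than those of the bright MRL/lpr array, and their channel medians were low. The part of the scaling in the high levels was not tested. Probe A_55_P2129047, well above background in 8 samples but not in MRL/lpr replicates 3 and 4, gave a fitted log2 difference of 0.55 between MRL/lpr and Fn14ko (adjusted p = 0.430 over all probes, limma). For the first probe it was 2.33 (adjusted p = 0.0608 over all probes, limma). Probe A_55_P2129046 was well above background in 0 samples, and its fitted difference was 1.86 (standard error 1.14). The last 30 bases of each probe, minus strand of mm9, are printed because the probes differ in position and signal, and capitals mark AATAAA, the common polyadenylation signal.
A_55_P2050932: gttcaatgaAATAAAagcccagagaacttc
A_55_P2129047: gttgtcatggctcagattggtgggaaatca
A_55_P2129046: gtttggggcagcaagagacatggctcagtg

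That hexamer was read in 6 of the 15 probes of the 10 genes, compared with 12.6% of all 39429 probes, and its reverse complement TTTATT in 0 of the 15 and 4.03% of all. The 6 probes are those of *Tlr3* and *Sting1*, both probes of *Ddx58*, and 1 probe each of *Tlr7* and *Ifih1*. Such a match is a description of the probe's letters only.

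*Tlr3*, the receptor for double-stranded RNA, had a level of 0.0441, 0.0460, 0.0311 and 0.170 in MRL/lpr, 0.0459, 0.0474, 0.0495 and 0.0469 in Fn14ko, and 0.0261, 0.144, 0.0380 and 0.133 in MRL/+. The 4 Fn14ko values and those of the bright MRL/lpr array lay within a narrow band, and the 3 high values came from samples where *Tlr3* was not well above background and lay below the negative-control level. Fitted log2 differences were −0.20, −0.48 and 0.27 in MRL/lpr against MRL/+, Fn14ko against MRL/+ and MRL/lpr against Fn14ko, with adjusted p of 1.00, 0.598 and 0.719 in limma, and −0.55, −0.48 and −0.07 without the weak array. Each of them changed sign under some scaling or background choice.

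*Tlr4*, the receptor for lipopolysaccharide, was near background in most samples. In MRL/lpr its level was 0.0157, 0.0157, 0.113 and 0.303, in Fn14ko 0.0112, 0.0143, 0.00636 and 0.0190, and in MRL/+ 0.0128, 0.119, 0.0102 and 0.0892. It was well above background in 5 samples only, all of them in Cy3, and in these the level was 0.0157 in MRL/lpr, 0.0112 and 0.00636 in Fn14ko, and 0.0128 and 0.0102 in MRL/+, too few to compare. Of its 2 probes, A_55_P2076390 was well above background in 0 samples. The log2 difference of MRL/lpr from Fn14ko was 2.03 (standard error 1.03, adjusted p = 0.206 from limma), 0.25 without the weak array, and had an adjusted p of 0.0169 without MRL/lpr replicate 2 (over alternatives 0.0169 to 1). Most of all genes were called in the fit without that replicate. MRL/lpr differed from MRL/+ by 0.65, and by −1.13 without the weak array, and Fn14ko differed from MRL/+ by −1.38.

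*Unc93b1*, the chaperone of the endosomal receptors, was well above background in 10 samples, all but those of the weak array. Its level was 0.675, 0.568, 0.201 and 0.381 in MRL/lpr, 0.463, 0.448, 0.626 and 0.639 in Fn14ko, and 0.482, 0.609, 0.503 and 0.791 in MRL/+. The strains overlapped in all 3 comparisons. Between Fn14ko and MRL/+, both measured in full, the log2 difference was −0.12 with a 95% confidence interval from −0.86 to 0.61 (adjusted p = 0.813, limma), and −0.52 to 0.28 without the weak array. MRL/lpr differed from MRL/+ by −0.50 (adjusted p = 0.535, limma) and by 0.08 without the weak array, and from Fn14ko by −0.38 and 0.21, and by 0.01 from Fn14ko with normexp background.

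Of the cytosolic RNA sensors, *Ddx58* (RIG-I) had a level of 0.146, 0.120, 0.109 and 0.313 in MRL/lpr, 0.0434, 0.0493, 0.0519 and 0.0609 in Fn14ko, and 0.0507, 0.205, 0.0431 and 0.123 in MRL/+. The 2 MRL/lpr samples of the bright array lay above all 4 Fn14ko samples and the Cy3 samples of MRL/+. Those of the weak array were also higher than Fn14ko but not well above background, and there the negative-control levels alone (0.0687 and 0.332) exceed every Fn14ko value. The Cy5 samples of MRL/+, not well above background, lay below the negative-control level of their channel. The log2 difference of MRL/lpr from Fn14ko was 1.62 (standard error 0.50, adjusted p = 0.0713 from limma, exact permutation p = 0.0286). Relative to all genes, whose median differed by 1.33, it was small, whereas without the weak array it was 1.38 beside a median of 0 (adjusted p = 0.0727, limma). Over the 28 alternatives that gave a value, the difference was above 0 in each, at 0.16 to 2.28, and its adjusted p was 0.00644 to 0.769 and under 0.05 in 4, among them that without MRL/lpr replicate 2 (0.0122). The fit without replicate 2 called most of all genes in this comparison. The lowest difference came from the median over all probe spots as the scale.

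MRL/lpr against MRL/+ gave 0.86 for *Ddx58* (adjusted p = 0.413, limma), and 0.62 without the weak array (adjusted p = 0.303, limma). Without the Cy5 samples of MRL/+ as well, chosen after seeing the data, it was 1.48 (adjusted p = 0.0207, limma; over alternatives 0.0124 to 0.951), from 2 MRL/lpr mice on 1 array. Fn14ko against MRL/+ gave −0.76 (adjusted p = 0.422, limma), and 0.10 without those samples and the weak array.

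The 2 probes of *Ddx58* on chromosome 4 gave fitted differences of unequal size, and no test compared them. A_55_P1965000 (40151893 to 40151952, mm9) had a level of 0.146, 0.0966, 0.126 and 0.318 in MRL/lpr and 0.0765, 0.0814, 0.0987 and 0.0945 in Fn14ko, a log2 difference of 0.82 (adjusted p = 0.228 over all probes, limma), with overlap. A_52_P385536 (40151133 to 40151192) was not well above background in any Fn14ko sample, and in MRL/lpr only in replicate 2, so no fold is given for its fitted difference of 3.09 (adjusted p = 0.0458 over all probes, limma). Its spot carried an outlier mark in MRL/lpr replicate 1 and was left out there, so the gene level of that sample rests on the other probe alone, and the probe's fit on 3 MRL/lpr samples. The intensity of this spot was 304 in MRL/lpr replicate 1 and 280 in replicate 2, which share the array, compared with 43.2 to 162 in the other 10 samples. With the marked spot kept, the *Ddx58* level of replicate 1 was 0.104, still above all Fn14ko samples. The last 30 bases of both probes, minus strand of mm9, are printed for this disagreement, again with AATAAA in capitals.
A_52_P385536: ttagtgcAATAAAatgaatttgccgagagc
A_55_P1965000: ctctagctattttcAATAAAggctcatgtt

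*Ifih1* (MDA5), the sensor of long double-stranded RNA, had a level of 0.0390, 0.0329, 0.369 and 0.561 in MRL/lpr, 0.0313, 0.0505, 0.0451 and 0.0475 in Fn14ko, and 0.0344, 0.163, 0.0296 and 0.115 in MRL/+. High values were again those of the weak array and of the Cy5 samples of MRL/+, and the other samples overlapped. The log2 difference of MRL/lpr from Fn14ko was 1.57 (adjusted p = 0.227 in limma, standard error 0.88) and reversed to −0.26 without the weak array, while without MRL/lpr replicate 2 its adjusted p was 0.0178 (over alternatives 0.0178 to 1). Most of all genes were called in this comparison without replicate 2. MRL/lpr differed from MRL/+ by 0.95, and by −0.88 without the weak array, and Fn14ko differed from MRL/+ by −0.62. Of its 2 probes on chromosome 2, A_55_P1978987 was well above background in 1 sample only, MRL/lpr replicate 3. The other, A_55_P2005783, gave 0.53 in the same comparison (adjusted p = 0.428 over all probes, limma).

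**Figure D2:**
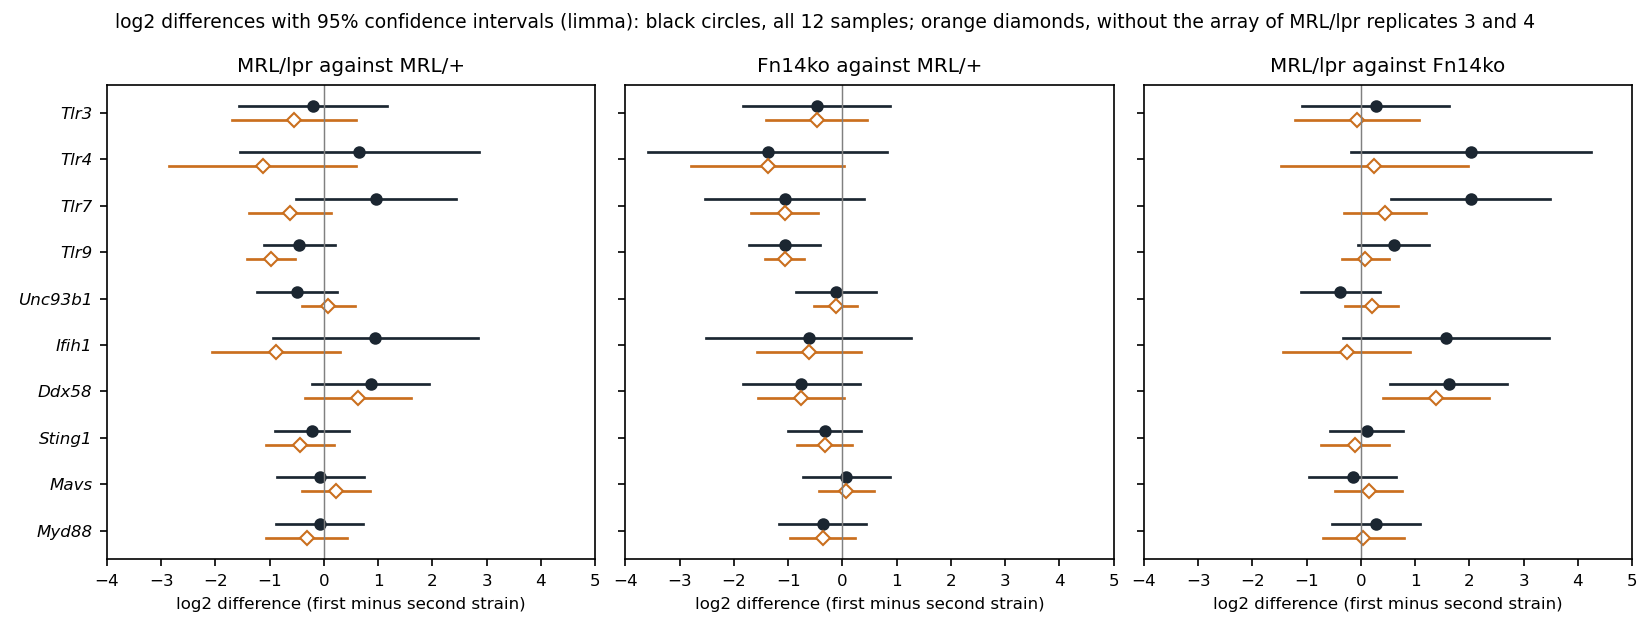
Fitted log2 differences of the 10 genes in the 3 comparisons, with 95% confidence intervals from limma, for all 12 samples (black circles) and without the array of MRL/lpr replicates 3 and 4 (orange diamonds). For *Tlr4*, *Tlr7* and *Ifih1* MRL/lpr lay above MRL/+ with all samples and below it without the weak array, and in Fn14ko against MRL/+ the 2 fits share all samples compared, so only the intervals differ.

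Among the adaptors, *Sting1* (*Tmem173*), which answers to cyclic dinucleotides made upon cytosolic DNA, had a level of 0.214, 0.172, 0.253 and 0.269 in MRL/lpr, 0.219, 0.165, 0.241 and 0.213 in Fn14ko, and 0.247, 0.390, 0.181 and 0.265 in MRL/+. All 3 strains overlapped, and the MRL/lpr samples of the weak array were not well above background. Between Fn14ko and MRL/+, both well above background throughout, the log2 difference was −0.33 (adjusted p = 0.473 in limma, standard error 0.31). Its sign flipped with the median over all probe spots (0.59) and with the negative-control spots as background (0.26). It also flipped in Cy3 samples alone (0.12) and without the weak array and the Cy5 samples of MRL/+ (0.12). MRL/lpr differed from MRL/+ by −0.22 and from Fn14ko by 0.11, and by −0.44 and −0.11 without the weak array.

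*Mavs*, the mitochondrial adaptor of RIG-I and MDA5, had a level of 0.281, 0.244, 0.0983 and 0.312 in MRL/lpr, 0.262, 0.207, 0.240 and 0.241 in Fn14ko, and 0.176, 0.344, 0.139 and 0.304 in MRL/+. The strains overlapped, and within MRL/+ the Cy5 samples were higher than the Cy3 ones. Fitted log2 differences were −0.07, 0.07 and −0.14 in MRL/lpr against MRL/+, Fn14ko against MRL/+ and MRL/lpr against Fn14ko, all smaller than the standard error of 0.37, and each changed sign under at least 1 alternative. They were 0.22, 0.07 and 0.15 without the weak array, and without the Cy5 samples of MRL/+ as well, chosen after seeing the data, *Mavs* was 0.83 higher in MRL/lpr than in MRL/+ (adjusted p = 0.0335 in limma, over alternatives 0.0335 to 1.00).

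*Myd88*, the adaptor of TLR4, TLR7 and TLR9, is measured by 1 probe in 10 spots, which gives 10 readings a sample. Its level was 0.125, 0.117, 0.114 and 0.247 in MRL/lpr, 0.104, 0.115, 0.128 and 0.123 in Fn14ko, and 0.105, 0.235, 0.105 and 0.201 in MRL/+. Apart from MRL/lpr replicate 4 and the Cy5 samples of MRL/+, all values lay between 0.104 and 0.128. In each of those 2 MRL/+ samples 0 of the 10 spots were well above background, and in MRL/lpr replicates 3 and 4 it was 0 of the 8 spots without an outlier mark. The other 2 spots of the weak array were marked, at a level of 2.35 and 2.76 in replicate 3 and of 4.69 and 3.41 in replicate 4, and with them kept the *Myd88* level would be 0.602 and 1.01 there. The fitted difference of MRL/lpr from MRL/+ was −0.08 (adjusted p = 1.00, limma) without those spots and 1.03 with them. Fn14ko against MRL/+ gave −0.37 and MRL/lpr against Fn14ko 0.28 (adjusted p = 0.500 and 0.524, limma), the latter 1.39 with the marked spots kept. The 3 differences were −0.32, −0.37 and 0.05 without the weak array.

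The genes most like each of the 10 were sought over the 10 samples outside the weak array, by Pearson's r of log2 levels among 15242 genes well above background in at least 8 of them. *Tlr4* was too dim for this. For *Tlr9* they were *Haglr* and *Dlx3* (r of 0.986 for both), for *Tlr7* *Senp2* and *Igsf11* (0.986 for both), for *Tlr3* *Rfc3* and *5930403N24Rik* (0.990 and 0.988), and for *Unc93b1* the probe A_55_P2150737 and *Yeats2* (0.907 and 0.905). For *Ddx58* they were *Cd52* and *Tanc1* (0.989 and 0.983), and for *Ifih1* *Btbd19* and *Baz1a* (0.991 and 0.988). For *Sting1* they were *Hacl1* and *Cracr2b* (0.956 and 0.945), for *Mavs* *Pi16* and *Slc2a4* (0.977 and 0.975), and for *Myd88* *Eif2ak4* and *Rbmx2* (0.992 for both). Over the same samples the log2 levels of *Tlr9*, *Tlr7*, *Tlr3* and *Unc93b1* correlated with the log2 negative-control level at r of 0.808, 0.683, 0.797 and 0.448, those of *Ddx58* and *Ifih1* at 0.625 and 0.850, and those of *Sting1*, *Mavs* and *Myd88* at 0.463, 0.479 and 0.816. For *Tlr4* r was highest, at 0.900. The part of this in the likeness of the genes was not tested.

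Of the other genes of these pathways, 102 were measured, from lists of further pattern receptors, nucleic acid sensors, adaptors and kinases, transcription factors, negative regulators and target genes. In MRL/lpr against MRL/+ limma called 0 higher and 1 lower (0.831% and 1.76% of all genes). In Fn14ko against MRL/+ 0 were called in either direction (0.0135% higher and 0.128% lower), and in MRL/lpr against Fn14ko 2 higher and 0 lower (4.62% and 1.38%). At an unadjusted p under 0.05 there were 19, 2 and 36 of the 102, beside 18.6%, 8.52% and 27.7% of all genes. Their median log2 differences were 0.21, −0.49 and 1.07, beside 0.20, −0.97 and 1.33 over all genes. Without the weak array the counts were 4 higher and 7 lower, 0 and 4, and 2 and 1 (3.73% and 6.51%, 3.44% and 9.09%, 5.27% and 2.45% of all genes).

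Higher in MRL/lpr than in Fn14ko were *Lbp* and *Pycard*. *Lbp*, which hands lipopolysaccharide to CD14 and TLR4, had a level of 0.283, 0.141, 0.136 and 0.290 in MRL/lpr, 0.0512, 0.0350, 0.0150 and 0.0270 in Fn14ko, and 0.0215, 0.131, 0.0179 and 0.0955 in MRL/+. All 4 MRL/lpr samples were higher than all others, but replicates 3 and 4 and the Cy5 samples of MRL/+ were not well above background, and the negative-control levels of those 2 replicates exceed every Fn14ko value. The log2 difference from Fn14ko was 2.77 (adjusted p = 0.0327 in limma, standard error 0.68), and 2.77 without the weak array as well (adjusted p = 0.00177, limma). For Lbp, MRL/lpr against Fn14ko, the sign held in all 29 alternatives and the gene was called in 15 (adjusted p of 0.00177 to 0.464). It was not called with the array as a random block (0.225), quantile normalization (0.0765), the negative-control spots as background (0.280), the median over all probe spots (0.0846), the floor at 5% (0.0503), 1 dye alone or the heteroscedastic test, and not without MRL/lpr replicate 3 or 4, Fn14ko replicate 2, 3 or 4, or MRL/+ replicate 4 (0.0524, 0.0662, 0.119, 0.0912, 0.132 and 0.0535).

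*Pycard*, the adaptor of inflammasomes, had a level of 0.236, 0.273, 0.924 and 1.37 in MRL/lpr, 0.0894, 0.0983, 0.0915 and 0.128 in Fn14ko, and 0.107, 0.237, 0.145 and 0.234 in MRL/+. Again all 4 MRL/lpr samples lay above all Fn14ko samples, both groups well above background throughout. The difference was 2.41 (adjusted p = 0.0179 in limma, standard error 0.50), and 1.33 without the weak array (adjusted p = 0.00723, limma). For Pycard, MRL/lpr against Fn14ko, the call held in 20 of 29 alternatives (0.00248 to 0.430). It did not with the array as a random block (0.0827), quantile normalization (0.0870), the negative-control spots as background (0.217), the median over all probe spots (0.0755), 1 dye alone or the heteroscedastic test, or without Fn14ko replicate 2 or 4 (0.0804 and 0.0758).

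The gene called lower in MRL/lpr than in MRL/+ was *Tollip*, an inhibitor of receptor signalling, at a level of 1.21, 1.15, 0.410 and 0.541 in MRL/lpr, 1.79, 1.99, 1.71 and 1.87 in MRL/+, and 1.55, 1.65, 1.39 and 1.49 in Fn14ko. No MRL/lpr sample reached another strain, the weak array held the lowest values, and replicate 4 was not well above background. The log2 difference was −1.30 (standard error 0.32, adjusted p = 0.0474 from limma), −0.64 without the weak array (adjusted p = 0.0328, limma) and 0.169 in adjusted p with the array as a random block. For Tollip, MRL/lpr against MRL/+, it was called in 9 of 29 alternatives (0.00593 to 0.450), and in 2 of the 12 that leave out 1 sample (without MRL/lpr replicate 1 or 2, 0.00593 and 0.0151; 0.0703 to 0.138 in the others).

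In the lists where none passed, the genes with the smallest adjusted p are given as values. For MRL/lpr against Fn14ko they included *Oas2* (4.13, adjusted p = 0.0727 from limma), *Ifi204* (2.30, 0.105), *Cxcl10* (2.61, 0.0662), *Rsad2* (2.16, 0.0791), *Cyld* (−1.10, 0.0810), *Tollip* (−1.02, 0.0727), *Rela* (−1.05, 0.166) and *Nfkb2* (1.28, 0.169). *Oas2* was at 2.23 and 4.61 times the channel median on the weak array and at 0.0134 to 0.116 elsewhere, and without that array the difference was 1.11. For the others it was then 1.37 (*Ifi204*), 2.11 (*Cxcl10*), 1.17 (*Rsad2*), −0.35 (*Cyld*), −0.36 (*Tollip*), −0.01 (*Rela*) and 0.54 (*Nfkb2*). *Cxcl10* and *Ifi204* were higher on the bright MRL/lpr array (0.0605 and 0.0558, 0.0624 and 0.0446) than in every Fn14ko sample, the highest of which were 0.0234 and 0.0301.

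For MRL/lpr against MRL/+ they were *Lbp* (2.09, adjusted p = 0.113 from limma), *Nrros* (−0.84, 0.135), *Ddx41* (−0.78, 0.170), *Oas2* (3.33, 0.175), *Pycard* (1.64, 0.0969), *Tab1* (−0.63, 0.125), *Rela* (−1.08, 0.222), *Irf1* (0.78, 0.247), *Ccl5* (2.03, 0.0949) and *Rsad2* (1.74, 0.188). In the same order they were 2.09, −0.52, −0.71, 0.31, 0.56, −0.48, −0.04, 0.84, 1.80 and 0.75 without the weak array. In that fit limma called *Lbp* and *Ccl5* (adjusted p = 0.0206 and 0.0266). For Fn14ko against MRL/+ the adjusted p was 0.422 in limma for each of these: *Hsp90b1* (0.56), *Tlr12* (−1.10), *Ddx41* (−0.53), *Irak4* (−1.67), *Ikbkg* (−0.98), *Nfkb2* (−1.18), *Irf7* (−1.60), *Sigirr* (−1.01), *Nlrx1* (−1.11), *Ifit3* (0.52) and *Mx1* (−1.74). Of these, *Hsp90b1* and *Nlrx1* were well above background in all 12 samples. *Hsp90b1* was at 6.84, 5.25, 7.03 and 4.65 in Fn14ko and 5.55, 2.53, 5.12 and 3.41 in MRL/+. *Nlrx1*, a mitochondrial regulator that binds MAVS, was at 0.143, 0.157, 0.144 and 0.149 in Fn14ko and 0.284, 0.467, 0.226 and 0.353 in MRL/+. Both had an adjusted p of 0.651 in limma with the array as a random block. Without the weak array limma called *Sigirr* and *Nlrx1* (adjusted p = 0.0164 and 0.00118). *Mx1* was not well above background in any sample, and *Irak4* in 1 sample of each strain. For both, and for *Tlr12*, *Ikbkg*, *Nfkb2* and *Irf7*, the MRL/+ Cy5 samples were above every Fn14ko sample but below their negative-control levels. *Sigirr* and *Ifit3* were not well above background in the Cy5 samples of MRL/+.

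A list of 16 microglial genes, with *Itgam* the most abundant, summed to 15.8 to 26.7 in MRL/lpr, 17.5 to 19.5 in Fn14ko, and 18.3 to 27.2 in MRL/+. In limma 1 of the 16 was higher in MRL/lpr than in MRL/+ (0.831% of all genes), and 1 was lower in MRL/lpr than in Fn14ko (1.38%). Without the weak array 1 was higher and 2 lower in MRL/lpr than in MRL/+, 1 higher and 4 lower in Fn14ko than in MRL/+, and 2 higher and 1 lower in MRL/lpr than in Fn14ko (3.73% and 6.51%, 3.44% and 9.09%, 5.27% and 2.45% of all genes). Lists of 8 astrocyte genes (most abundant *Aldoc*) and 8 endothelial genes (*Cldn5*) summed to 17.7 to 81.3 and 4.17 to 8.86 over the 12 samples. Of the astrocyte genes 1 was higher in MRL/lpr than in MRL/+, and 1 higher and 1 lower than in Fn14ko, and of the endothelial genes 1 was higher than in Fn14ko (4.62% of all genes higher).

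Of blood and immune cells, 7 genes of B and plasma cells (most abundant *Jchain*) summed to 1.54, 0.849, 1.31 and 2.83 in MRL/lpr, 0.183, 0.248, 0.280 and 0.373 in Fn14ko, and 0.170, 1.21, 0.180 and 0.931 in MRL/+. In MRL/lpr replicates 3 and 4 and MRL/+ replicates 2 and 4 only 1 of the 7 was well above background. In limma 1 of the 7 was higher in MRL/lpr than in MRL/+ and 2 than in Fn14ko (0.831% and 4.62% of all genes). *Ms4a1* and *Pax5* were not well above background in any sample. Lists of 8 T cell genes (most abundant *Thy1*, which neurons express too) summed to 15.1 to 57.4, of 8 dendritic cell genes (*Tcf4*) to 1.86 to 5.59, and of 6 monocyte and neutrophil genes (*Camp*) to 0.0945 to 1.42, with *Cd3g*, *Xcr1*, *Clec9a* and *Ccr2* not well above background in any sample. In limma 1 gene each of the T cell list and of the monocyte and neutrophil list was higher in MRL/lpr than in Fn14ko (4.62% of all genes). In MRL/lpr replicates 3 and 4, 3 and 2 genes of the T cell list were well above background, and 0 of the monocyte and neutrophil list. The part of these cells in the levels of the 10 genes was not tested, and in bulk tissue fewer cells of a type and less RNA per cell cannot be told apart.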

How the data were processed

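Hippocampal RNA of 12 mice, 4 a strain, was measured on 6 arrays. The deposited files hold linear intensities of both dyes at every spot, which the authors obtained by image analysis with Agilent Feature Extraction, before and after its own processing, together with marks for outliers and a call of spots well above background. Here the unprocessed intensities were used, and the median local background was subtracted from the mean foreground, spots with an outlier mark were set to missing (2858 values, their calls of well above background not counted), channels were scaled to their medians over 10877 spots, spots and probes were averaged on the linear scale, and gene values were then floored at 1% of that median for the log2 levels. The log2 levels of 29608 genes were compared in limma 3.58.1 (R 4.3.3, statmod 1.5.0) with dye as a covariate and a trend in the variance, and p was adjusted over all genes by the method of Benjamini and Hochberg. Two-sided exact permutation tests compared 4 with 4 samples (70 splits), regardless of the array. The limma model was tested on simulated data, where it called few changes of about the size of the *Tlr9* difference between Fn14ko and MRL/+. The simulated noise was independent between samples and had no shared or weak array, so that outcome does not carry over to these data. Tables and plots were made with Python 3.11.15, pandas 2.3.3, numpy 2.4.6 and matplotlib 3.10.9. The number of arrays limits the precision.

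Named are all 10 genes, *Tnfrsf12a* and *Fas*, and from each pathway list and comparison up to 4 called genes with the largest difference or, where none was called, at most 2 with the smallest adjusted p. Of each cell type list the most abundant gene is named, and for each gene detected in at least 8 of 10 samples the 2 most alike. Genes named for not being detected were chosen after their values were seen. The genes and lists were chosen with earlier results of these data known. Apart from leaving out single samples, 13 alternatives were planned, and 5 were chosen after seeing the data. *Ighm* and *Ly6c2* had no match on the array. Proteins were not analysed here.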

Additional observations from a re-analysis of the deposited data

Results flagged for a closer look

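For each of the 10 genes, *Tnfrsf12a* and *Fas*, the highest and lowest sample of each strain was compared with the nearest other sample, and the gap was divided by the range of the strain. In 3 of 36 groups the ratio was above Dixon's 95% critical value for 4 samples, where chance gives about 1 in 20. All 3 were MRL/lpr replicate 4, in Cy5 on the weak array. For *Tlr3* the ratio was 0.893, with a level of 0.170 and the nearest sample at 0.0460. For *Myd88* it was 0.914, with 0.247 and 0.125. For *Fas* it was 0.886, with 0.253 and 0.0538. In this sample the negative-control level was 0.332, above all 3 levels. The cause was not tested.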

How the results depend on the processing

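Limma called 767, 42 and 1779 genes in MRL/lpr against MRL/+ (A), Fn14ko against MRL/+ (B) and MRL/lpr against Fn14ko (C), and 0 of the 10 sensor and receptor genes in each (0, 1 and 2 at an unadjusted p under 0.05). The values below are those that changed sign, as log2 differences, and counts that moved by more than 1.5 times, for the letters A, B and C. The cause was not tested.

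With normexp background and an offset of 50, 1228 genes were called in A and 157 in B, and 1 of the 10 in C (*Ddx58*). *Tlr3* (0.87), *Mavs* (0.51), *Myd88* (0.54), *Sting1* (0.22) and *Fas* (0.03) reversed in A, and *Mavs* (0.44) and *Unc93b1* (0.01) in C. With the Agilent processed signal, 2423, 26 and 2746 genes were called and 1 of the 10 in A and in C (*Ddx58* in both). In A *Tlr3* (1.33), *Mavs* (0.15), *Myd88* (1.08) and *Fas* (0.88) reversed, in B *Tlr3* (0.49), *Ifih1* (0.41), *Myd88* (0.69) and *Unc93b1* (0.03), and in C *Sting1* (−0.02).

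Quantile normalization gave 0 genes in B (2511 at an unadjusted p under 0.05 in limma) and 444 in C. *Tlr3* (0.56), *Tlr4* (0.03), *Ifih1* (0.42), *Ddx58* (0.08) and *Myd88* (0.18) reversed in B, and *Tlr3* (−1.25), *Myd88* (−1.03), *Sting1* (−0.82), *Tnfrsf12a* (−0.29), *Fas* (−1.30) and *Nfkb2* (−0.46) in C. With the median over all probe spots, chosen after seeing the data, 277, 0 (2592 unadjusted, limma) and 3571 genes were called. In B *Tlr3* (0.44), *Ifih1* (0.29), *Ddx58* (0.16), *Myd88* (0.55), *Unc93b1* (0.79), *Sting1* (0.59) and *Ddx41* (0.39) reversed. In C it was *Tlr3* (−1.18), *Tlr9* (−0.85), *Myd88* (−1.17), *Sting1* (−1.35), *Tnfrsf12a* (−0.63), *Fas* (−1.15) and *Nfkb2* (−0.17).

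With the negative-control spots as background, chosen after seeing the data, 2 genes were called in B and 242 in C. *Tlr3* (0.18) and *Myd88* (0.46) reversed in A. In B it was *Tlr3* (1.06), *Tlr4* (0.02), *Tlr7* (0.50), *Ifih1* (0.92), *Ddx58* (0.93), *Myd88* (1.54), *Sting1* (0.26), *Fas* (0.12), *Tlr12* (0.35), *Ikbkg* (0.75), *Nfkb2* (0.28) and *Mx1* (0.00). In C it was *Tlr3* (−0.89), *Myd88* (−1.09), *Sting1* (−0.81), *Tnfrsf12a* (−0.28) and *Fas* (−1.31). Keeping the spots with outlier marks, chosen after seeing the data, reversed *Myd88* in A (1.03).

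The floor at 5% gave 26 genes in B and 433 in C, the filter on genes well above background in at least 6 samples 88 and 916, and the filter of spots valid in all 12 samples 353 in C. That filter kept only *Tlr7* and *Tlr9* of the 10. With the array as a random block 111, 0 (917 unadjusted, limma) and 56 genes were called. Cy3 samples alone gave 0, 0 and 0 genes in limma (2837, 337 and 2609 unadjusted). *Tlr3* (0.24), *Mavs* (0.09), *Myd88* (0.19) and *Sting1* (0.14) reversed in A there, *Tlr3* (0.60), *Ifih1* (0.24), *Ddx58* (0.02), *Myd88* (0.14), *Unc93b1* (0.13), *Sting1* (0.12) and *Mx1* (0.00) in B, and *Tlr3* (−0.36) and *Fas* (−0.18) in C. Cy5 samples alone gave 3, 0 (2894 unadjusted, limma) and 1 genes, and reversed *Tlr4* (−0.58) and *Ifih1* (−0.01) in A, and *Mavs* in B (−0.53) and C (0.30). The heteroscedastic test of the study's methods on linear values gave 0, 4 and 0 genes (2280, 2316 and 2166 unadjusted, compared with 5516, 2522 and 8208 in limma) and reversed *Mavs* in B (−0.02).

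Without the weak array 3013 genes were called in A and 3687 in B, and 1 and 2 of the 10. *Tlr4* (−1.13), *Tlr7* (−0.62), *Ifih1* (−0.88), *Mavs* (0.22) and *Unc93b1* (0.08) reversed in A, and *Tlr3* (−0.07), *Ifih1* (−0.26), *Mavs* (0.15), *Unc93b1* (0.21), *Sting1* (−0.11) and *Fas* (−0.61) in C. With the array as a random block as well, chosen after seeing the data, the same differences came with 20803, 23060 and 6506 genes called and 6, 7 and 1 of the 10, at a block correlation of −0.749, and no call is read from that fit. Without the Cy5 samples of MRL/+ in addition to the weak array, chosen after seeing the data, 3604, 163 and 3712 genes were called, with 2 of the 10 in A (*Ddx58* and *Mavs*) and 1 in C (*Ddx58*). In A *Tlr3* (0.51), *Tlr7* (−0.47), *Mavs* (0.83), *Myd88* (0.21), *Unc93b1* (0.38), *Sting1* (0.01), *Tnfrsf12a* (0.13) and *Rela* (0.33) reversed. In B it was *Tlr3* (0.59), *Ifih1* (0.34), *Ddx58* (0.10), *Myd88* (0.16), *Unc93b1* (0.17), *Sting1* (0.12) and *Mx1* (0.03), and in C the 6 genes and values given for the weak array alone.

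Leaving out 1 sample at a time gave 220 to 3868 genes in A, 1 to 223 in B and 158 to 20455 in C, where MRL/lpr replicate 2 gave the highest count, and 0 to 5 of the 10 in C (1, *Tlr7*, without MRL/lpr replicate 1, and 5, *Tlr4*, *Tlr7*, *Tlr9*, *Ifih1* and *Ddx58*, without replicate 2). The 20455 genes are most of all genes, and no call in C is read from that fit. Ranges that crossed 0 were those of *Tlr3* (−0.58 to 0.13), *Tlr4* (−0.03 to 1.60), *Mavs* (−0.32 to 0.25) and *Myd88* (−0.28 to 0.13) in A, *Mavs* (−0.09 to 0.25) and *Unc93b1* (−0.26 to 0.03) in B, and *Tlr3* (−0.11 to 0.60), *Mavs* (−0.39 to 0.18), *Sting1* (−0.03 to 0.26) and *Fas* (−0.30 to 0.89) in C. With the replicate number as a block, 925, 29 and 1604 genes were called. Samples of the same number share a dye. After removal of the strain means they correlated at r of −0.14 to 0.36 over 12 pairs, 7 of them over 0.1, and at −0.50 to 0.16 with the dye removed as well, and the numbers were not taken as pairs.

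Of the 10 genes with *Tnfrsf12a* and *Fas*, 472 differences kept their direction and side of the threshold under the alternatives other than leaving out a sample, 31 kept their direction and passed the threshold, and 112 reversed, the fit with the negative block correlation included. Several of the 31, among them *Tlr3*, *Tlr4*, *Ifih1*, *Ddx58* and *Myd88* in B, passed in that fit alone, and no call is read from them. *Tlr9* in A and B, *Ddx58* in A and C, *Tlr4* and *Tlr7* in C and *Tnfrsf12a* in B kept their direction in all alternatives that gave a value. Signal over background limits what can be read. In MRL/lpr replicates 3 and 4 the median foreground was 1.93 and 1.73 times the background, compared with 4.42 to 12.6 in the other samples. In these and in MRL/+ replicates 2 and 4, whose negative-control levels were high, 3, 2, 3 and 5 of the 10 genes were well above background, and a level near that of the negative-control spots does not show how much transcript was there.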
